A study of Mus musculus with 50 samples.

Results

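The genes described here copy the DNA and divide the cell: 25 genes of DNA replication and 22 genes of mitosis, 47 in all, listed by textbook function. The lists were chosen with earlier results of these data known. One gene of each kind, Mcm7 and Ccnb1, has no named probe set in the annotation used, so 45 genes (24 of replication and 21 of mitosis) were measured, of 19494 named genes on the arrays, each by 1 probe set. Proliferating cells load the MCM helicase onto replication origins in G1, fire those origins in S phase, and then build a spindle under cyclin A, cyclin B and Cdk1 in mitosis. The transcripts of the replication apparatus are made mainly from late G1 through E2F factors, and those of mitosis later, in G2, through the MuvB complex with B-MYB and FOXM1. In the colon these genes are known for marking the transit-amplifying cells of the lower crypt, but lymphocytes and other dividing cells carry them too.

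The study measured RNA of whole mouse colon on 50 Affymetrix arrays, 5 in each of 10 groups. FADD links death receptors to caspase-8, and IEC-KO marks a knockout in intestinal epithelial cells. Array titles carry numbers of 2 ranges, and groups were compared within a range. Range 1-30 holds the floxed control Fadd fl/fl, FADD IEC-KO alone, with Zbp1 lost (FADD IEC-KO Zbp1 -/-) or with Mlkl lost (FADD IEC-KO Mlkl -/-), and CASP8 IEC-KO alone or with Mlkl lost (CASP8 IEC-KO Mlkl -/-). Range 86-124 holds the floxed control Casp8 fl/fl, CASP8 IEC-KO, and FADD IEC-KO alone or with Ripk3 also deleted in the epithelium (FADD IEC-KO RIPK3 IEC-KO). ZBP1, RIPK3 and MLKL act in necroptosis, ZBP1 as a nucleic acid sensor, RIPK3 as the kinase and MLKL as the protein that breaches the membrane. The labels give an age of 11 weeks for the arrays and 10 to 12 weeks for the study, specific pathogen-free housing and a shared light cycle and chow. The sources used here do not state the Cre line, its promoter or whether floxed controls were littermates. CASP8 IEC-KO of range 1-30 was set against Fadd fl/fl, and FADD IEC-KO of range 86-124 against Casp8 fl/fl, because each range holds only that floxed group. The same holds for their co-deletions. In these comparisons the deletion and the floxed line cannot be told apart.

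All values are log2 signals as deposited, and array medians lay between 6.41 and 6.47. The mean of 16 epithelial markers lay between 10.50 and 10.94, so every array carried them. Fadd differed by -0.99 ± 0.11 and -1.16 ± 0.11 (log2 difference ± standard error, limma, 5 arrays against 5) between FADD IEC-KO and the floxed arrays in ranges 1-30 and 86-124, and Casp8 by -1.18 ± 0.11 and -1.52 ± 0.11 in CASP8 IEC-KO. Against FADD IEC-KO, Mlkl differed by -1.95 ± 0.17, Zbp1 by -1.80 ± 0.27 and Ripk3 by -1.41 ± 0.25 in their co-deletions. FADD IEC-KO replicates 22, 23 and 117 had the highest neutrophil means of all arrays, at 8.43, 6.80 and 7.34. They also had the lowest smooth muscle means, at 9.19, 9.02 and 8.86. Next for smooth muscle came replicates 25 and 124, at 9.33 and 9.84, with neutrophil means of 5.14 and 5.81. The labels give 1 number per array and nothing more on the animals, so p-values measure the spread between these samples.

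In FADD IEC-KO of range 1-30 the replication genes were higher almost as a block, whereas few single mitosis genes passed the test. Of 24 replication genes 19 rose and none fell, and of 21 mitosis genes 3 rose and none fell (limma, adjusted p under 0.05 over all genes), where 8.59% of all genes were called higher and 10.1% lower. The median difference was 0.53 for the replication genes and 0.32 for the mitosis genes, against -0.016 over all genes. The mean of the 24 replication genes was 7.31, 7.57, 7.26, 7.40 and 7.17 in the FADD IEC-KO arrays. In Fadd fl/fl it was 7.09, 6.85, 6.82, 6.60 and 6.87, so that the lowest knockout array lay above the highest control array, and the group means differed by 0.50 ± 0.10. For differences of list means, here and below, ± is the standard error from the SDs of the 2 groups, not from limma. The mean of the 21 mitosis genes overlapped, at 8.02, 8.39, 8.35, 7.94 and 7.90 against 8.01, 7.61, 7.52, 8.03 and 7.78, with a difference of 0.33 ± 0.15. Whether the 2 lists differ from each other in this was not tested. In a whole tissue, more dividing cells and more transcript per cell cannot be told apart.

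**Figure D1:**
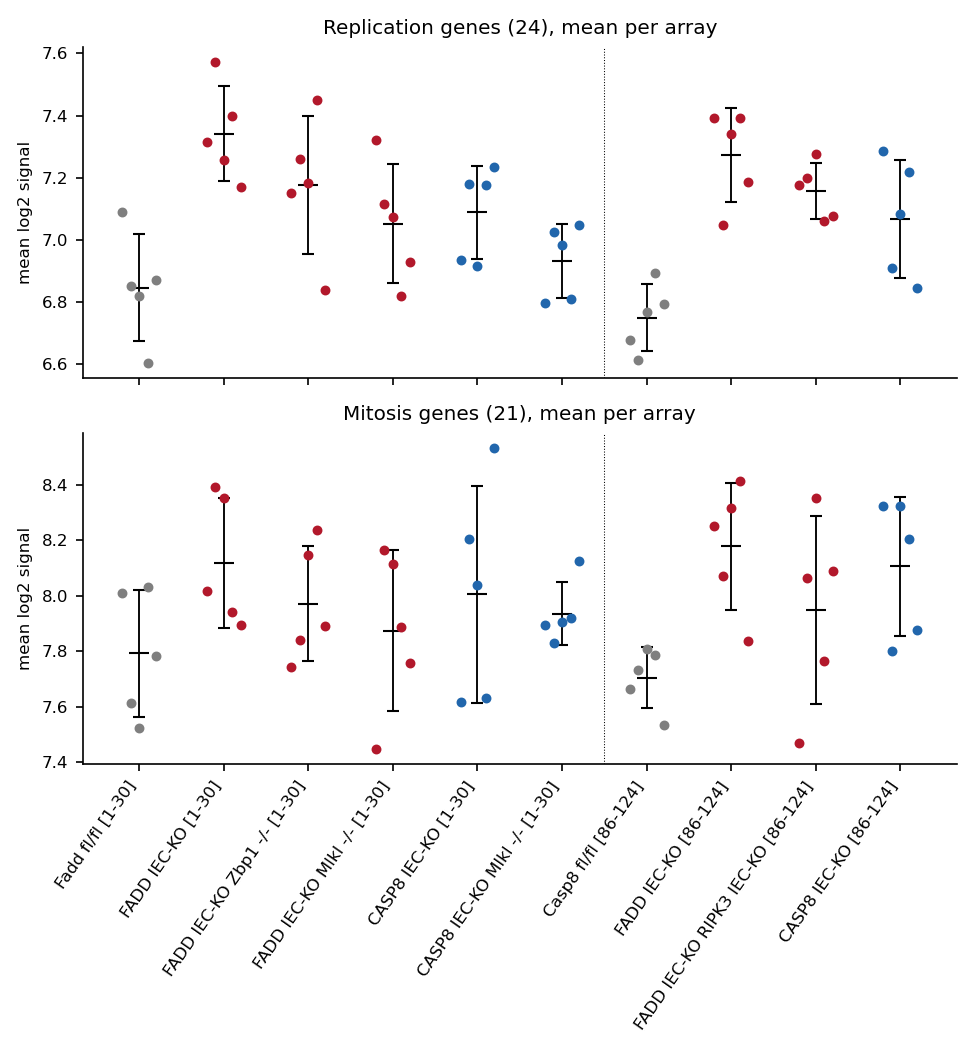
Mean log2 signal of the 24 replication genes and of the 21 mitosis genes (vertical axes) on each of the 50 arrays, by group and title range; each point is 1 array, and the black bars give each group's mean ± SD (n = 5). The replication means of FADD IEC-KO lie above every floxed array of the same range in both ranges, while the mitosis means of range 1-30 overlap.

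The flap endonuclease Fen1, which trims Okazaki fragments, had the smallest adjusted p of the list. It stood at 6.58, 7.01, 6.90, 6.74 and 6.44 in FADD IEC-KO and at 6.04, 5.97, 5.77, 5.93 and 6.12 in Fadd fl/fl. The groups did not overlap, and the difference was 0.77 ± 0.13 (1.70-fold, adjusted p = 0.000127). The histone H3-H4 chaperone Nasp read 7.35, 7.46, 7.54, 7.43 and 7.40 against 7.17, 6.84, 6.89, 6.76 and 6.82, again with no overlap (0.54 ± 0.10, adjusted p = 0.000292). Cyclin E1 (Ccne1), which drives entry into S phase, was at 7.12, 7.84, 7.17, 7.28 and 7.21 against 6.86, 6.68, 6.25, 6.51 and 6.56 (0.75 ± 0.14, adjusted p = 0.000341). Replicate 22 was the high array of that group, and the other 4 also lay above all controls. Of the replication genes, 11 did not overlap between the groups, and of the mitosis genes 2, where 4.23% of all genes were higher without overlap.

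By role, the 5 measured MCM helicase subunits all rose, from 0.45 ± 0.11 for Mcm2 to 0.76 ± 0.17 for Mcm4 (adjusted p = 0.00369 and 0.00135). Mcm2 was at 8.03, 8.03, 7.62, 7.99 and 7.79 in FADD IEC-KO against 7.62, 7.42, 7.58, 7.26 and 7.30, an overlap formed by replicate 23 and 1 control array. Of the genes that load and fire origins, Cdc6, Gins1 and Gins2 rose, Gins1 by 0.84 ± 0.17 (adjusted p = 0.000505), and Cdc45 was 0.18 ± 0.13 higher without passing. Gins1, a subunit of the helicase activator GINS, was at 5.65, 5.71, 5.94, 5.61 and 5.50 against 5.04, 5.00, 4.76, 4.77 and 4.63, far from overlap. All 3 genes that copy chromatin with the DNA rose: Nasp, the remodeller Hells and the maintenance methylation factor Uhrf1.

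At the fork itself the picture was mixed. Fen1, the DNA ligase Lig1 (0.53 ± 0.11, adjusted p = 0.000964) and the sliding clamp Pcna rose, whereas the polymerase Pole was 0.24 ± 0.18 and the primase subunit Prim1 0.06 ± 0.14 higher without passing. Pcna was at 10.45, 10.63, 10.49, 10.74 and 10.45 against 10.41, 10.33, 10.30, 9.90 and 10.26. Its difference was small, 0.31 ± 0.11 (adjusted p = 0.0425), yet the groups did not overlap. Of the nucleotide supply genes, both subunits of ribonucleotide reductase and the dUTPase Dut rose, Rrm1 by 0.66 ± 0.15 (adjusted p = 0.00184), while thymidylate synthase (Tyms) was 0.13 ± 0.08 higher with an adjusted p of 0.314. Cyclin E2 (Ccne2) rose with Ccne1, and the checkpoint kinase Chek1 was 0.20 ± 0.10 higher without passing.

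The mitosis genes that rose were Cdk1, the cyclin-dependent kinase that starts mitosis, Cdc20, which activates the anaphase promoting complex, and the topoisomerase Top2a, which disentangles sister chromatids. Cdk1 was at 7.41, 7.88, 7.86, 7.30 and 7.23 in FADD IEC-KO and at 7.06, 6.57, 6.37, 7.14 and 7.04 in Fadd fl/fl. The groups met without overlapping, and the difference was 0.70 ± 0.21 (adjusted p = 0.017). Cdc20 was at 7.44, 8.11, 7.98, 7.47 and 7.45 against 7.31, 6.74, 6.95, 7.56 and 7.12, and Top2a at 8.31, 8.97, 8.61, 8.36 and 8.38 against 8.36, 8.00, 7.66, 8.09 and 8.07. In both genes replicates 22 and 23 were the highest arrays and the other 3 knockout arrays lay close to the upper controls (adjusted p = 0.0199 for Cdc20 and 0.0485 for Top2a). None of the 5 mitotic kinases, the 4 passenger and centromere genes or the 5 spindle and cytokinesis genes passed. Mki67, whose protein Ki-67 is the standard stain for cycling cells, was at 10.37, 10.45, 10.21, 10.26 and 10.13 against 10.35, 9.98, 10.01, 10.41 and 10.09. Its groups overlapped throughout, and the difference was 0.12 ± 0.15 (adjusted p = 0.634).

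**Figure D2:**
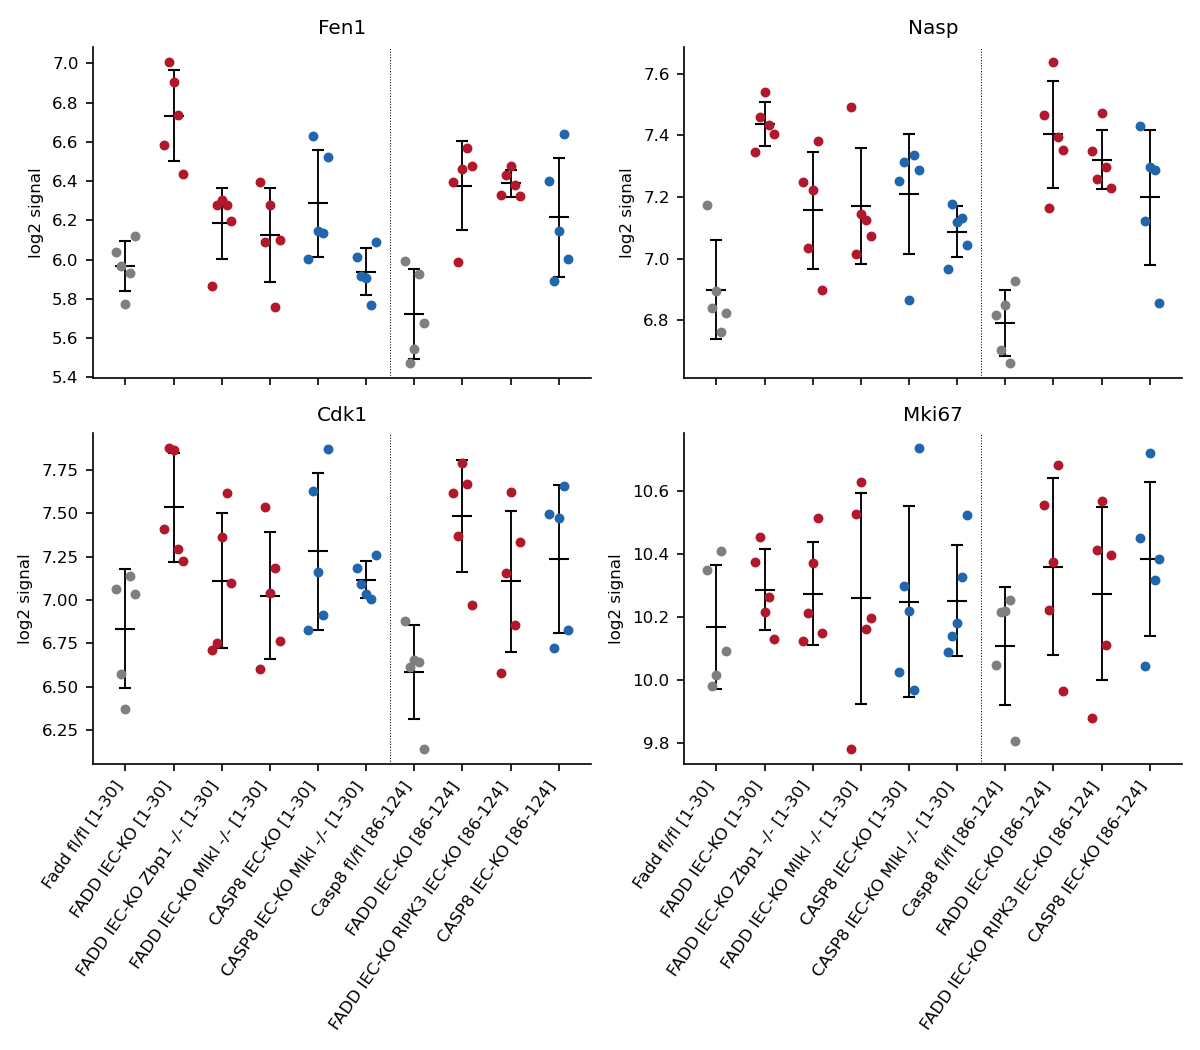
Log2 signal of Fen1, Nasp, Cdk1 and Mki67 (vertical axes) on every array, by group; each point is 1 array, and the black bars give each group's mean ± SD (n = 5). Fen1 and Nasp in FADD IEC-KO of range 1-30 lie clear of the floxed arrays, at 6.44 or more against at most 6.12 and at 7.35 or more against at most 7.17, while Mki67 overlaps between these groups.

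Markers of other cell types differed as well in range 1-30. All 14 smooth muscle markers fell in FADD IEC-KO, their mean spanning 9.02 to 10.44 against 10.58 to 10.79 in Fadd fl/fl, and 11 of 13 neutrophil markers rose, with a mean of 4.70 to 8.43 against 4.38 to 4.52. Replicate 22 had the highest mean of both neutrophil markers (8.43) and replication genes (7.57). Of the other cell types, 7 of 8 plasma cell markers rose (mean 7.85 ± 0.54 against 6.73 ± 0.35, SD, n = 5), as did 12 of 14 monocyte and macrophage markers (7.77 ± 0.43 against 7.05 ± 0.26), with 1 that fell, and 7 of 13 T cell markers (5.79 ± 0.34 against 5.28 ± 0.13). Fibroblast markers fell for 7 of 11 (8.53 ± 0.22 against 9.04 ± 0.15), and none of 9 B cell or 9 germinal centre B cell markers was called. Of 16 epithelial markers 3 rose, and their mean was 0.12 ± 0.035 higher. With the smooth muscle mean as a covariate 0 of the 45 genes passed, with medians of 0.47 and 0.21 for the 2 lists and 0.0256% of all genes called higher. Without replicates 22 and 23, which earlier results of these data had set apart, 8 passed, all of replication (1.72% of all genes called higher): Fen1, Nasp, Ccne1, Gins1, Lig1, Mcm2, Mcm3 and Cdc6. That fit kept replicate 25, whose smooth muscle mean was 9.33. Leaving out replicate 22 alone gave 14 (5.36% of all genes called higher), and the epithelial mean as a covariate 14 (5.94%). No mitosis gene passed under either setting, nor without replicate 23 or Fadd fl/fl replicate 27 or 28. The part of the immune cell and fibroblast markers in these differences was not tested.

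The promoters of the 2 lists were compared by the motifs they hold, which uses none of the array values. The lists themselves were chosen with earlier results of these data known. RefSeq windows (GRCm38.p6, from 250 bases before to 50 bases after the start) were found for 36 of the 45 measured genes, 19 of replication with 23 windows and 17 of mitosis with 17. Words of the E2F site (either TTCGCGC or else TTGGCGC, and likewise either TTCCCGC or else TTGCCGC, on either strand) were in 14 of 23 replication windows (60.9%), in 2 of 17 mitosis windows (11.8%) and in 9.57% of all 32851 windows of the table. The cell cycle homology region, CHR (TTTGAA or TTCGAA, on either strand), was in 4 replication windows (17.4%), 14 mitosis windows (82.4%) and 19.2% of all. The NF-Y box CCAAT, on either strand, was in 52.2%, 88.2% and 37.4%. Words of the different motifs may share bases where they meet, and a match describes letters only.

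The 250 bases before the start are shown for 8 genes that rose, 4 of each list. They were taken by adjusted p among those with a word of their list's motif wholly within these bases. Called genes whose words lie elsewhere in the window, such as Mcm3, Plk1 and Aurka, were passed over. So were Fen1 and Lig1, whose E2F words lie in other windows of these genes. Capitals mark the E2F, CHR and CCAAT words, and each run is read 5′ to 3′ on the gene's strand. The first 4 are Rrm1 (chr7:102441445-102441694, plus strand), Rrm2 (chr12:24708004-24708253, plus), the helicase subunit Mcm5 (chr8:75109259-75109508, plus) and the helicase loader Cdc6 (chr11:98907901-98908150, plus).
Rrm1: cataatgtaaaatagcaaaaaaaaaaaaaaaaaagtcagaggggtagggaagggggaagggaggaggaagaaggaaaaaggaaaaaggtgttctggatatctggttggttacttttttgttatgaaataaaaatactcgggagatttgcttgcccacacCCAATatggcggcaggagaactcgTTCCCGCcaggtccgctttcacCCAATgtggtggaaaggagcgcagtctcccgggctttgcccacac
Rrm2: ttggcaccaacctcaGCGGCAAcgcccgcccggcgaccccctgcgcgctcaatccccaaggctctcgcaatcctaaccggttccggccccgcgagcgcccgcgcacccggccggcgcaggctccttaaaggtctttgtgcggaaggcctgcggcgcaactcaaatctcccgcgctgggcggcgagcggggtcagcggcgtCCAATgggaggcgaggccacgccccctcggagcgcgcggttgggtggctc
Mcm5: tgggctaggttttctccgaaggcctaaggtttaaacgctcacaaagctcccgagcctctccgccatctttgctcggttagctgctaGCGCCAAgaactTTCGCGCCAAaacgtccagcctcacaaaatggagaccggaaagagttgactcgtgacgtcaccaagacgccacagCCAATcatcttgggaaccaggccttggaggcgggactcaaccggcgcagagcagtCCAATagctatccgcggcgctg
Cdc6: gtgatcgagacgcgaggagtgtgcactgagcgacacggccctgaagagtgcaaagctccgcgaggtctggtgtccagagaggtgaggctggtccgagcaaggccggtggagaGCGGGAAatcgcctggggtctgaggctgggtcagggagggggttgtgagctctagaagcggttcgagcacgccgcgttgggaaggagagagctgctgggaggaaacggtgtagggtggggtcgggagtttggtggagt
The mitosis genes are Cdc20 (chr4:118437344-118437593, minus strand), Cdk1 (chr10:69352913-69353162, minus), the ubiquitin-conjugating enzyme Ube2c of the anaphase promoting complex (chr2:164769679-164769928, plus) and Top2a (chr11:99024190-99024439, minus).
Cdc20: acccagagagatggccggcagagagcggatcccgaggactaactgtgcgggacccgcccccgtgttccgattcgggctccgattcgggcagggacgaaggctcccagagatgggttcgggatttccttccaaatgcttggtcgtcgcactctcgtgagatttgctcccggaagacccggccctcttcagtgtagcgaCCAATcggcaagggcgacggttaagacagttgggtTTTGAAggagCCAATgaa
Cdk1: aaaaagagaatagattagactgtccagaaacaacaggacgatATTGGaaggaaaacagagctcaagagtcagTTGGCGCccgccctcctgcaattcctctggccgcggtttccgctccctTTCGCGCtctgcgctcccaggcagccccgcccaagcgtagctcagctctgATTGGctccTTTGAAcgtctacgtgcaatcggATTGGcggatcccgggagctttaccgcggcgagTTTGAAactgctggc
Ube2c: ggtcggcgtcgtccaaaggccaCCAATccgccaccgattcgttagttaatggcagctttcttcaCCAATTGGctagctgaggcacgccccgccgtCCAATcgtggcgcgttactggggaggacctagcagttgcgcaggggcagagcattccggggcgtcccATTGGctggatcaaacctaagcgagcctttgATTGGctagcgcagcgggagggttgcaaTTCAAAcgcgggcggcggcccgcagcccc
Top2a: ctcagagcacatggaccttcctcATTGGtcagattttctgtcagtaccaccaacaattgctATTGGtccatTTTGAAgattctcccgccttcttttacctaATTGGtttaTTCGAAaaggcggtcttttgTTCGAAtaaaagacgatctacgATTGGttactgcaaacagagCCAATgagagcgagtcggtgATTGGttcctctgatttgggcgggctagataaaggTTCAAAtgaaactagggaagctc
In the 4 mitosis runs the CHR word closest to the start begins at position -18 in Cdc20, -15 in Cdk1, -29 in Ube2c and -23 in Top2a, counted from the start. The E2F words of the replication runs begin at -67 in Rrm1, -138 in Cdc6, -235 in Rrm2 and -164, -152 and -149 in Mcm5. Only genes with words before the start were shown, so these positions do not compare the 2 lists. Cdk1 holds both kinds, its E2F words beginning at -178 and -130.

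In FADD IEC-KO of range 86-124 most replication genes were again higher, and a group of mitosis genes passed with them. Against Casp8 fl/fl, 20 of 24 replication genes and 7 of 21 mitosis genes rose and none fell, where 6.8% of all genes were called higher and 4.25% lower. The medians were 0.56 and 0.42, against -0.025 over all genes. The replication mean was 7.39, 7.05, 7.34, 7.39 and 7.19 against 6.68, 6.61, 6.77, 6.89 and 6.79 in Casp8 fl/fl (0.52 ± 0.083), and the mitosis mean 8.25, 8.07, 8.32, 8.42 and 7.84 against 7.67, 7.73, 7.81, 7.78 and 7.54 (0.47 ± 0.11). Neither mean overlapped here. Of the single genes, 14 of replication and 6 of mitosis did not overlap, where 4.51% of all genes were higher without overlap.

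Nasp had the smallest adjusted p, at 7.47, 7.16, 7.64, 7.39 and 7.35 in FADD IEC-KO against 6.82, 6.70, 6.85, 6.66 and 6.93 (0.61 ± 0.10, adjusted p = 8.68e-05). Uhrf1 was at 8.61, 8.43, 8.50, 8.71 and 8.42 against 7.96, 7.59, 8.01, 8.08 and 7.93, with a gap between the groups (0.62 ± 0.12, adjusted p = 0.000702). Fen1 was at 6.39, 5.99, 6.46, 6.57 and 6.47 against 5.99, 5.47, 5.55, 5.93 and 5.68 (0.65 ± 0.13, adjusted p = 0.000838). Replicate 95 was the low array and lay level with the highest control. The same replicate was lowest of its group in Nasp, Gins1, Mcm2 and Ccne1. Ccne1 itself was 0.36 ± 0.14 higher and did not pass (adjusted p = 0.0906), and the difference between the ranges was not called for it either. Mcm2 and Pcna rose by 0.34 ± 0.11 and 0.33 ± 0.11 (adjusted p = 0.0403 and 0.0462).

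Among the mitosis genes Cdc20, Cdk1 and Top2a rose as in range 1-30, together with the mitotic kinases Plk1 and Aurka, Ube2c and the kinesin Kif20a, which acts in cytokinesis. Cdk1 was at 7.62, 7.37, 7.79, 7.67 and 6.97 against 6.88, 6.62, 6.65, 6.64 and 6.14 (0.90 ± 0.21, 1.86-fold, adjusted p = 0.00446). Cdc20 was at 7.67, 7.60, 7.98, 7.95 and 7.39 against 6.92, 6.87, 7.07, 7.01 and 6.91 (0.76 ± 0.17, adjusted p = 0.0031). Plk1 was at 9.03, 8.89, 9.22, 9.21 and 8.73 against 8.12, 8.19, 8.14, 8.28 and 7.96 (0.88 ± 0.21, adjusted p = 0.00377). In all 3 the lowest knockout array, replicate 124, still lay above every control. The centromere and passenger genes Birc5, Cenpa, Cenpe and Cenpf did not pass in this range either, with differences of 0.17 to 0.29, and Mki67 was 0.25 ± 0.15 higher (adjusted p = 0.275).

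The 2 ranges share 19 genes called in both, which is 19 of the 22 of range 1-30 and 19 of the 27 of range 86-124. They are 16 replication genes, among them all 5 MCM subunits, Fen1, Lig1, Pcna, Nasp, Hells and Uhrf1, and the mitosis genes Cdc20, Cdk1 and Top2a. A test of the difference between the ranges called 0 of the 45 genes (limma), where 0.0256% and 0.0975% of all genes were called in its 2 directions, and no member reached an unadjusted p under 0.05, where 10.7% of all genes did. These 2 comparisons use separate arrays throughout.

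**Figure D3:**
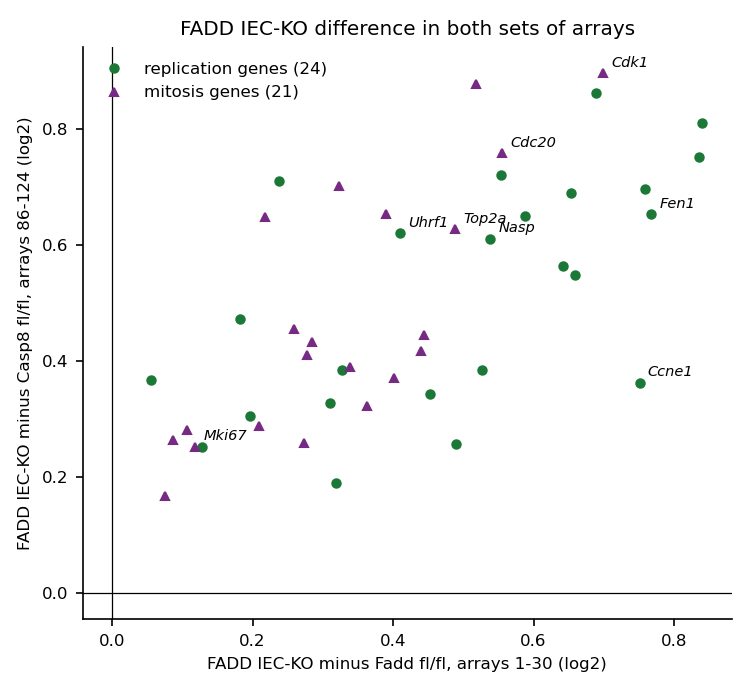
Log2 difference of FADD IEC-KO from the floxed arrays of the same title range for each of the 45 genes, range 1-30 on the horizontal axis and range 86-124 on the vertical axis, with replication and mitosis genes marked apart. All 45 points lie above 0 on both axes, from 0.06 for Prim1 on the horizontal axis to 0.90 for Cdk1 on the vertical axis.

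Fewer tissue markers were called in range 86-124. Of 14 smooth muscle markers 5 fell and of 13 neutrophil markers 1 rose, and the smooth muscle mean spanned 8.86 to 10.65 against 10.47 to 10.72 in Casp8 fl/fl. The neutrophil mean spanned 4.46 to 7.34 against 4.50 to 4.73. Of 14 monocyte and macrophage markers 8 rose (mean 7.63 ± 0.48 against 7.04 ± 0.11, SD, n = 5), of 8 plasma cell markers 2 (7.36 ± 0.55 against 6.80 ± 0.18) and of 13 T cell markers 2 (5.80 ± 0.45 against 5.45 ± 0.070), and 3 of 11 fibroblast markers fell (8.62 ± 0.36 against 8.91 ± 0.082). The part of these cell types was not tested. By array, replicates 89 and 120 had replication means of 7.39 each with neutrophil means of 4.56 and 4.52 and smooth muscle means of 10.52 and 10.35. Replicate 117 had a replication mean of 7.34 with 7.34 for neutrophils and 8.86 for smooth muscle, replicate 124 had 7.19 with 5.81 and 9.84, and replicate 95 had 7.05 with 4.46 and 10.65. With the smooth muscle mean as a covariate 13 replication genes and 3 mitosis genes passed, where 3.35% of all genes were called higher. The epithelial mean was 0.16 ± 0.055 higher, and with it as a covariate 8 replication genes and no mitosis gene passed, where 2.23% of all genes were called higher. The mean of crypt base stem cell markers differed by -0.10 in range 1-30 and -0.09 in range 86-124.

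**Figure D4:**
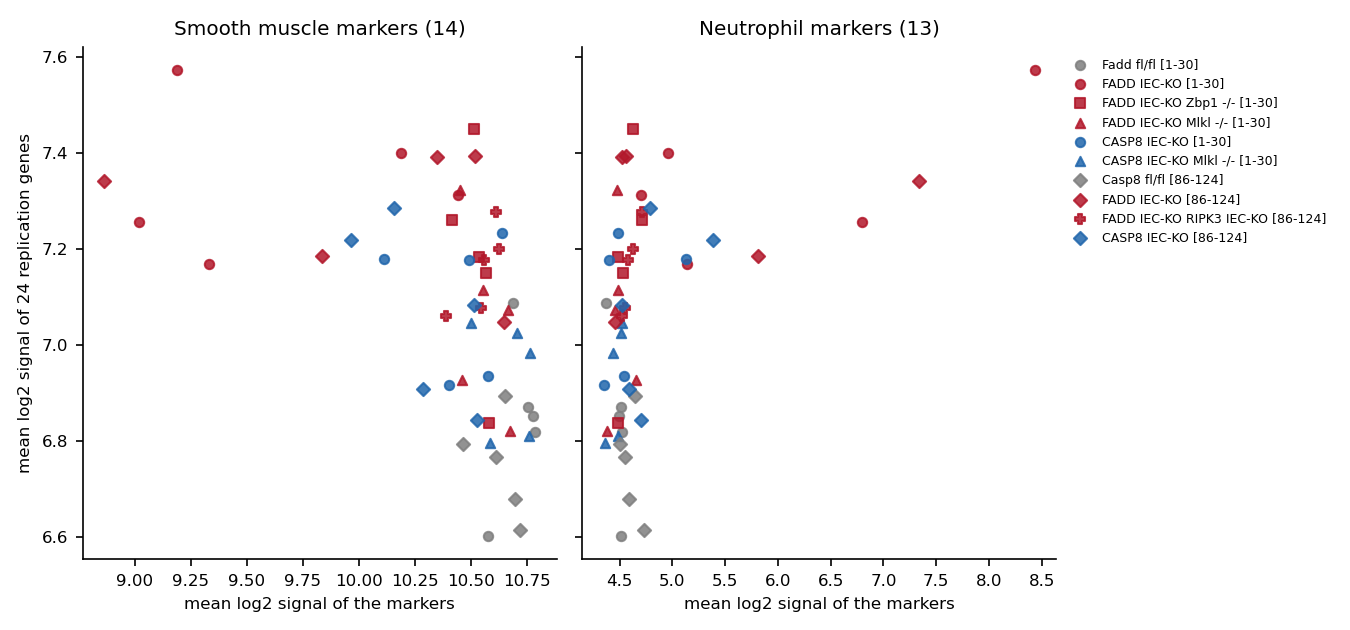
Mean log2 signal of the 24 replication genes (vertical axis) against the mean log2 signal of 14 smooth muscle markers (left) and 13 neutrophil markers (right, horizontal axes) on every array; each point is 1 array, with colour and shape by group. In FADD IEC-KO, replicates 22 and 117 combine replication means of 7.57 and 7.34 with neutrophil means of 8.43 and 7.34, and replicates 89 and 120 combine 7.39 each with 4.56 and 4.52.

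In CASP8 IEC-KO the means ran the same way, but few genes passed. In range 86-124, 4 of 24 replication genes (Nasp, Uhrf1, Fen1 and Mcm5) and 2 of 21 mitosis genes (Ccnb2 and Ube2c) rose and none fell, where 1.8% of all genes were called higher and 0.662% lower. All 45 genes had a higher mean than in Casp8 fl/fl, with medians of 0.33 and 0.37. They were read on the same arrays, so these are not 45 separate results. The share of all genes with a higher mean is not given here. At an unadjusted p under 0.05, 13 replication and 12 mitosis genes passed, where 18.3% of all genes did, in either direction. Nasp was at 7.43, 7.12, 7.30, 7.29 and 6.86 in CASP8 IEC-KO (0.41 ± 0.10, adjusted p = 0.0237), and Fen1 at 6.40, 5.89, 6.14, 6.64 and 6.00 (0.49 ± 0.13, adjusted p = 0.0339). In both, the low arrays of the group reached into the range of Casp8 fl/fl given above. Uhrf1 did not overlap, at 8.62, 8.13, 8.36, 8.41 and 8.39 (0.47 ± 0.12, adjusted p = 0.0312).

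Of the mitosis genes called in CASP8 IEC-KO, Ccnb2 is a B-type cyclin that partners Cdk1, and Ube2c passes ubiquitin to mitotic cyclins. Ccnb2 was at 9.36, 8.78, 9.28, 9.17 and 8.95 in CASP8 IEC-KO and at 8.52, 8.41, 8.75, 8.51 and 8.42 in Casp8 fl/fl, a narrow gap. Ube2c was at 9.58, 8.88, 9.46, 9.41 and 9.26 against 8.78, 8.54, 8.92, 8.61 and 8.43, with 1 array of each group crossing. Both had an adjusted p of 0.0392. In all, 2 replication genes and 3 mitosis genes did not overlap, where 1.68% of all genes were higher without overlap. None of these 6 calls held when only the arrays of the 2 groups were fitted, with either marker mean as a covariate, or without CASP8 IEC-KO replicate 87, without replicate 104 or without Casp8 fl/fl replicate 91. Without replicate 100 or Casp8 fl/fl replicate 119, 3 genes and 1 gene passed, and without replicate 108, by contrast, 15. The smooth muscle mean differed by -0.34 ± 0.12 with 0 of 14 markers called, and the epithelial mean was 0.21 ± 0.062 higher with 1 of 16 called. The fibroblast mean differed by -0.46 ± 0.13 with 3 of 11 markers lower, the endothelial mean by -0.30 ± 0.075 with 2 of 11 lower, and the plasma cell mean by 0.49 ± 0.19 with 0 of 8 called. The part of these 3 lists was not tested.

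In range 1-30 no member passed for CASP8 IEC-KO, where 0.0564% of all genes were called higher and 0.0667% lower (limma). The smallest adjusted p among the members was 0.152, for Tyms, and 8 replication and 3 mitosis genes had an unadjusted p under 0.05, where 11.7% of all genes did. Of the cell type markers none was called, and the fibroblast mean differed by -0.30 ± 0.091 and the plasma cell mean by 0.41 ± 0.20. The smooth muscle mean was 10.44 ± 0.21 against 10.72 ± 0.088 in Fadd fl/fl (SD, n = 5). The epithelial mean was 10.79 ± 0.094 against 10.69 ± 0.037. The part of these lists was not tested. The means of all 45 genes were higher than in Fadd fl/fl, with medians of 0.22 and 0.22. These too come from the same arrays and are given without the share over all genes. The replication mean was 6.93, 7.18, 6.92, 7.18 and 7.23, within and above the control range, and the mitosis mean spread from 7.62 to 8.53. The test of the difference between the ranges called no member for CASP8 IEC-KO, where 0.00513% and 0% of all genes were called in its 2 directions (limma; 1 replication gene and no mitosis gene at an unadjusted p under 0.05, where 7.95% of all genes did).

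**Figure D5:**
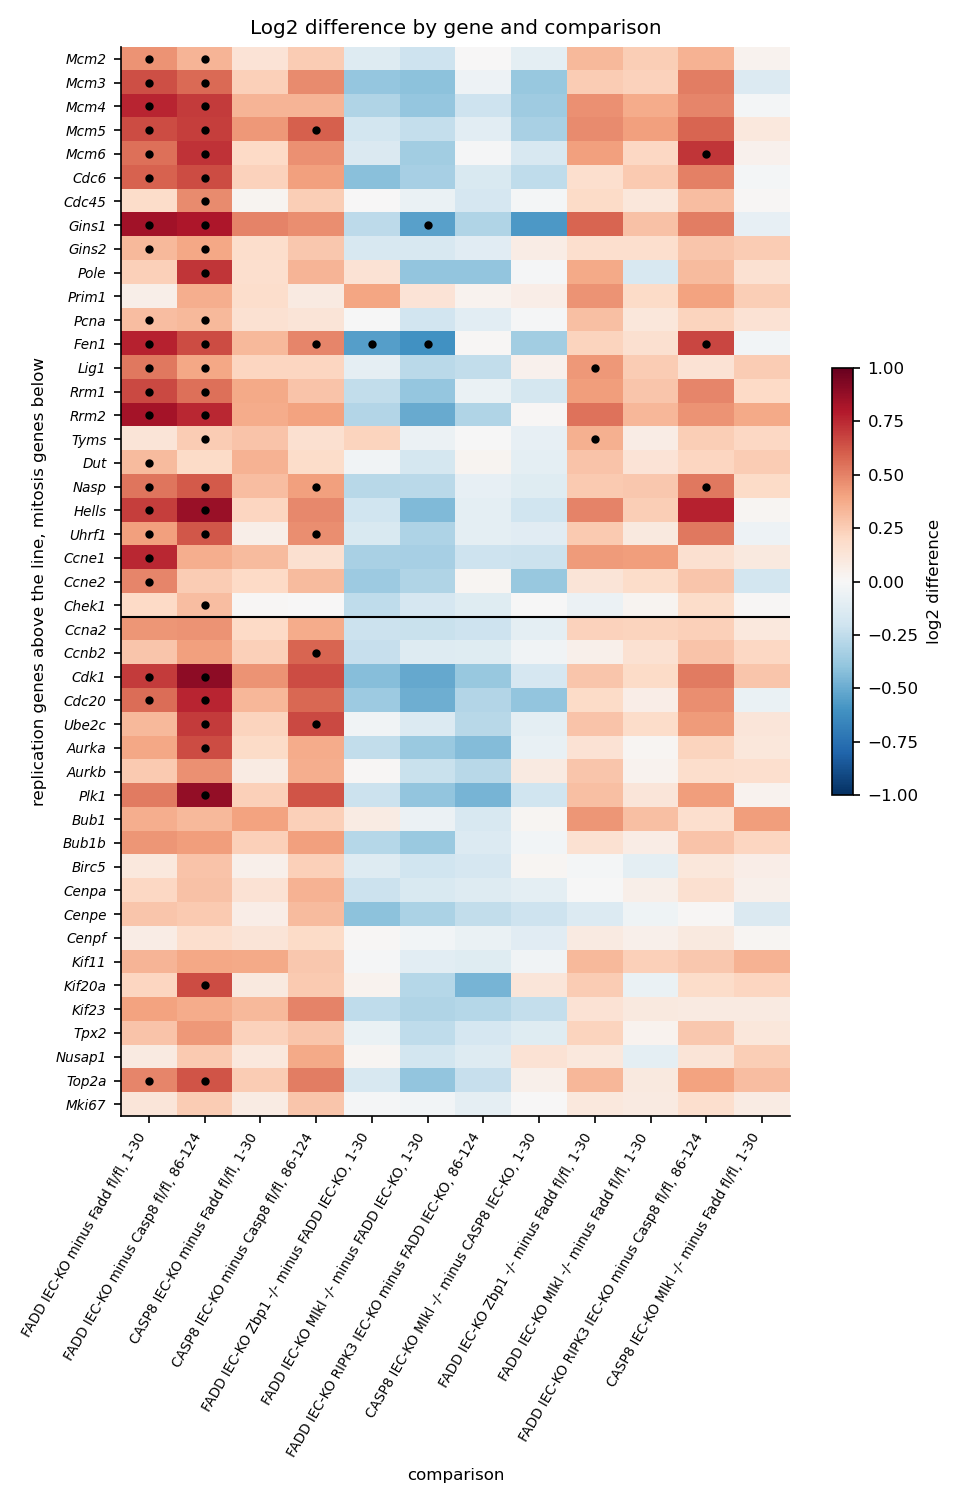
Log2 difference for each of the 45 genes (rows, by role, replication genes above the line) in 12 comparisons of groups (columns), red where the first group named was higher and blue where it was lower; black dots passed limma at an adjusted p under 0.05. In FADD IEC-KO against the floxed arrays the dots cover 19 and 20 of the 24 replication genes in ranges 1-30 and 86-124, and 3 and 7 of the 21 mitosis genes.

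The direct comparison of CASP8 IEC-KO with FADD IEC-KO, averaged over both ranges, called 3 replication genes lower in CASP8 IEC-KO and no mitosis gene, where 2.13% of all genes were called higher and 3% lower. They were Chek1 (-0.24 ± 0.070, adjusted p = 0.0331), Mcm4 (-0.39 ± 0.12, adjusted p = 0.0436) and Fen1 (-0.30 ± 0.093, adjusted p = 0.045). The differences for Mcm4 were -0.42 and -0.36 in the 2 ranges, so each range contributed, while for Fen1 they were -0.45 and -0.16. Of the replication genes 22 of 24 were lower in CASP8 IEC-KO, with a median of -0.24, and of the mitosis genes 17 of 21, with a median of -0.075. Both counts come from the same arrays and are given without the share over all genes. In the same comparison 12 of 14 smooth muscle markers were called higher, and 7 of 13 neutrophil, 11 of 14 monocyte and macrophage, 4 of 13 T cell and 2 of 8 plasma cell markers lower, and with the smooth muscle mean as a covariate no member passed. No member passed without FADD IEC-KO replicate 22, without replicate 117, or without CASP8 IEC-KO replicate 16, 18, 92 or 100, and 1 passed without FADD IEC-KO replicate 89 or 120 or CASP8 IEC-KO replicate 108. The count was 6, 6, 8, 10 and 11 without CASP8 IEC-KO replicate 17, FADD IEC-KO replicate 21, CASP8 IEC-KO replicate 87, CASP8 IEC-KO replicate 104 and FADD IEC-KO replicate 95.

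With Zbp1 lost in FADD IEC-KO 1 of the 45 genes passed the test, and with Mlkl lost 2. Set against all 45 genes, these counts lay near or below the share called over all genes. In FADD IEC-KO Zbp1 -/- against FADD IEC-KO, Fen1 fell by 0.55 (standard error 0.13, adjusted p = 0.00602), 1 of 24 replication genes and 0 of 21 mitosis genes, where 5.61% of all genes were called higher and 5.14% lower. In FADD IEC-KO Mlkl -/- against the same arrays, Fen1 fell by 0.61 (standard error 0.13, adjusted p = 0.00501) and Gins1 by 0.54 (0.17, adjusted p = 0.0417), where 2.91% were called higher and 2.93% lower. Fen1 was at 5.87, 6.28, 6.30, 6.28 and 6.20 with Zbp1 lost and at 6.39, 6.09, 6.28, 5.76 and 6.10 with Mlkl lost. All of these lay below the lowest FADD IEC-KO array, 6.44, where 2.77% and 2.28% of all genes were lower without overlap in the 2 comparisons, and the lowest of each, replicate 01 at 5.87 and replicate 14 at 5.76, lay inside and just below the span of Fadd fl/fl. Gins1 was at 5.20, 5.53, 5.22, 4.83 and 4.91 with Mlkl lost and overlapped FADD IEC-KO by 1 array. These 2 comparisons share the FADD IEC-KO arrays. The rises of Fen1 and Gins1 over Fadd fl/fl rest on the same arrays, so the falls are not separate from those rises.

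The replication means differed from FADD IEC-KO by -0.17 ± 0.12 with Zbp1 lost and by -0.29 ± 0.11 with Mlkl lost, and the mitosis means by -0.15 ± 0.14 and -0.25 ± 0.17. All 4 means overlapped FADD IEC-KO. In the same comparisons 13 and 14 of 14 smooth muscle markers rose, and 10 and 9 of 13 neutrophil markers fell. Fibroblast markers rose for 7 and 2 of 11, and plasma cell markers fell for 3 of 8 in each. Of 14 monocyte and macrophage markers 2 and 5 fell and 1 rose in each. The neutrophil means were 4.57 ± 0.10 and 4.49 ± 0.10 (SD, n = 5), against 6.01 ± 1.59 in FADD IEC-KO and 4.48 ± 0.061 in Fadd fl/fl. The calls of Fen1 and Gins1 were all lost when only the arrays of the 2 groups were fitted, with the smooth muscle mean as a covariate, and without FADD IEC-KO replicates 22 and 23. With Zbp1 lost, 3 genes passed without FADD IEC-KO replicate 21, without replicate 23 or without Zbp1 replicate 01, 2 without FADD IEC-KO replicate 24 or Zbp1 replicate 02, and 4 without Zbp1 replicate 04. With Mlkl lost, 1 passed without FADD IEC-KO replicate 22 or 23 or Mlkl replicate 13, 14 or 15.

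Against Fadd fl/fl itself, FADD IEC-KO Zbp1 -/- had 2 replication genes past the test, Tyms (0.35 ± 0.085, adjusted p = 0.0242) and Lig1 (0.44 ± 0.11, adjusted p = 0.0386), and no mitosis gene, where 0.498% of all genes were called higher and 0.575% lower. Tyms was at 7.95, 8.19, 8.30, 8.49 and 8.05 against 8.06, 7.96, 7.70, 7.71 and 7.78, and did not pass in FADD IEC-KO of that range. Neither call held without Fadd fl/fl replicate 28 or 29 or Zbp1 replicate 02, 03 or 04, or when only the arrays of the 2 groups were fitted, and 1 was left without Fadd fl/fl replicate 27. FADD IEC-KO Mlkl -/- and CASP8 IEC-KO Mlkl -/- had no member past the test against Fadd fl/fl, where 0.0667% and 0.0154% of all genes were called higher and 0.0923% and 0.0308% lower (limma; 6 and 4 replication genes, 0 and 1 mitosis genes at an unadjusted p under 0.05, where 9.38% and 8.19% of all genes did). The replication means stood 0.33 ± 0.13, 0.21 ± 0.12 and 0.086 ± 0.094 above Fadd fl/fl in the 3 groups in this order. All of these share the Fadd fl/fl arrays. CASP8 IEC-KO Mlkl -/- against CASP8 IEC-KO called no member, where 0.128% of all genes were called higher and 0.292% lower (limma; 5 replication genes and 1 mitosis gene at an unadjusted p under 0.05, where 13.1% of all genes did). The effect of Mlkl loss was not called different between the FADD and CASP8 backgrounds for any member, where 0.0103% and 0.00513% of all genes were called in the 2 directions, and none had an unadjusted p under 0.05, where 11% of all genes did.

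In FADD IEC-KO RIPK3 IEC-KO 3 replication genes rose. No marker on any of the cell type lists was called, in a comparison that called few genes at all. Against Casp8 fl/fl, Fen1 (0.66 ± 0.13, adjusted p = 0.0304), Nasp (0.53 ± 0.10, adjusted p = 0.0304) and Mcm6 (0.71 ± 0.15, adjusted p = 0.0444) rose, 3 of 24 replication genes and 0 of 21 mitosis genes, where 0.0462% of all genes, 9 in number, were called higher and 0.0308% lower. Fen1 was at 6.33, 6.43, 6.48, 6.38 and 6.32 and Nasp at 7.35, 7.26, 7.47, 7.30 and 7.23 on the arrays of this group. Every one of these values lay above the floxed values of the same gene given above. Mcm6, a helicase subunit, was at 9.09, 8.87, 9.21, 9.14 and 8.74 against 8.21, 7.91, 8.45, 8.40 and 8.53, also clear of them.

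With Ripk3 also deleted, 11 of 24 replication genes lay on every array above all Casp8 fl/fl arrays, as did 0 of 21 mitosis genes, where 1.68% of all genes were higher without overlap. The replication mean was 7.18, 7.20, 7.28, 7.06 and 7.08, above every floxed array (0.41 ± 0.063). The mitosis mean was 7.47, 8.07, 8.35, 7.76 and 8.09 and straddled the floxed range (0.24 ± 0.16). Replicate 88, lowest for mitosis, was in the middle for replication. Of the markers, 0 of 14 smooth muscle, 0 of 13 neutrophil and 0 of 14 macrophage markers were called, where 0.0462% of all genes were called higher and 0.0308% lower. The means for smooth muscle and neutrophils differed by -0.085 and -0.0063. The epithelial mean was 0.13 ± 0.056 higher with 0 of 16 called, and the fibroblast mean differed by -0.24 ± 0.077 with 0 of 11 called. With so few genes called, the lack of marker calls does not show that the cell types are alike, and their part was not tested. All 3 calls of replication genes were lost when only the arrays of the 2 groups were fitted, with the epithelial mean as a covariate, and without RIPK3 replicate 112 or 123. With RIPK3 replicate 93 or 113 or Casp8 fl/fl replicate 91, 98, 105 or 119 left out, 1 was called.

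Against FADD IEC-KO of the same range, FADD IEC-KO RIPK3 IEC-KO had no member past the test, where 0.159% of all genes were called higher and 0.595% lower (limma; 2 replication and 3 mitosis genes at an unadjusted p under 0.05, where 14.6% of all genes did). Fen1 differed by 0.01 ± 0.13 and Mcm6 by -0.01 ± 0.15, whereas Cdk1 differed by -0.38 ± 0.21 and Cdc20 by -0.29 ± 0.17 without passing. All 21 mitosis genes and 19 of 24 replication genes had a lower mean than in FADD IEC-KO, with medians of -0.20 and -0.10. Such counts rest on the same arrays for every gene and are given without the share over all genes. A p above the threshold does not show that the groups are alike.

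Set out over all groups, the log2 level of Fen1 in range 1-30 was lowest in CASP8 IEC-KO Mlkl -/-, at 5.94 ± 0.12, and next in Fadd fl/fl, at 5.97 ± 0.13 (SD, n = 5 each). It was 6.13 ± 0.24 in FADD IEC-KO with Mlkl lost, 6.19 ± 0.18 with Zbp1 lost, 6.29 ± 0.27 for CASP8 IEC-KO and 6.73 ± 0.23 for FADD IEC-KO alone. Each neighbour in this order lay within the spread of the next, except that the mean of FADD IEC-KO stood above the others. Single arrays overlapped even so, as CASP8 IEC-KO replicates 17 and 20, at 6.63 and 6.52, lay above FADD IEC-KO replicate 25, at 6.44. Fen1 was named for its adjusted p on these FADD IEC-KO arrays. In range 86-124 it was 5.72 ± 0.23 in Casp8 fl/fl and 6.22 ± 0.30 in CASP8 IEC-KO. FADD IEC-KO stood at 6.38 ± 0.23, and with Ripk3 also deleted at 6.39 ± 0.067, the narrowest spread of these 4 groups. Nasp in range 1-30 was lowest in Fadd fl/fl, at 6.90 ± 0.16, followed by CASP8 IEC-KO Mlkl -/- at 7.09 ± 0.083. FADD IEC-KO was at 7.16 ± 0.19 with Zbp1 lost, at 7.17 ± 0.19 with Mlkl lost and at 7.44 ± 0.072 alone, and CASP8 IEC-KO alone at 7.21 ± 0.20. Cyclin E1 was lowest in Fadd fl/fl, at 6.57 ± 0.22, and highest in FADD IEC-KO of range 1-30, at 7.32 ± 0.29, with FADD IEC-KO Mlkl -/- and Zbp1 -/- at 6.99 ± 0.19 and 7.00 ± 0.22.

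A floxed group was the lowest for other named members too. Mcm2 ranged from 7.43 ± 0.13 in Casp8 fl/fl to 7.89 ± 0.18 in FADD IEC-KO of range 1-30, Pcna from 10.14 ± 0.084 to 10.55 ± 0.13 in the same groups, and Uhrf1 from 7.91 ± 0.19 in Casp8 fl/fl to 8.54 ± 0.12 in FADD IEC-KO of range 86-124. The mitosis genes Cdk1, Cdc20 and Top2a were lowest in Casp8 fl/fl, at 6.59 ± 0.27, 6.96 ± 0.082 and 7.86 ± 0.20, and highest in FADD IEC-KO, at 7.53 ± 0.31, 7.72 ± 0.25 and 8.53 ± 0.27. Ccnb2 differed from these in being highest in CASP8 IEC-KO of range 86-124, at 9.11 ± 0.24, while Ube2c reached 9.32 ± 0.27 there and 9.36 ± 0.24 in FADD IEC-KO of the same range. Mki67 lay between 10.11 ± 0.19 and 10.38 ± 0.24 in all 10 groups, so that every neighbour in its order was within the spread. These levels span both ranges and were not tested across them.

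The spread between arrays of a group differed by gene. The median within-group standard deviation was 0.289 for mitosis, 0.226 for replication and 0.192 over all genes. Cdk1, at 0.35, stood at percentile 95.8 of all genes, whereas Tyms, at 0.13, stood at percentile 13.2. In 6 of the 10 groups the same array was highest in both list means, but in only 1 group was the same array lowest in both. Of the 45 genes 14 were called in no comparison: Prim1 of the replication genes, and Ccna2, Aurkb, Bub1, Bub1b, Birc5, Cenpa, Cenpe, Cenpf, Kif11, Kif23, Tpx2, Nusap1 and Mki67 of the mitosis genes.

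The other genes of the pathway, from lists by function, rose in part in FADD IEC-KO. Of 51 other replication genes 22 rose in range 1-30 and 17 in range 86-124, and of 71 other mitosis genes 8 and 17 rose. Of all genes 8.59% and 6.8% were called higher in the 2 ranges and 10.1% and 4.25% lower. The mitosis count of range 1-30 lay near the share called higher. The exonuclease Exo1 rose by 1.09 ± 0.23 in range 1-30, the origin-firing kinase subunit Dbf4 by 0.71 ± 0.15 and 0.77 ± 0.15 in the 2 ranges, and the chromatin assembly subunit Chaf1b by 1.06 ± 0.20 in range 86-124. The spindle checkpoint gene Mad2l1 rose by 0.48 ± 0.14 and 0.53 ± 0.14. Of 18 E2F, RB and MuvB genes 4 rose and 3 fell in range 1-30 and 7 rose in range 86-124. The E2F partner Tfdp1 rose by 0.46 ± 0.087 and 0.40 ± 0.087, and the repressor E2f8, itself a target of E2F, by 0.71 ± 0.20 and 0.85 ± 0.20.

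Genes that act before S phase were called in both directions in range 1-30. For scale, 8.59% of all genes were called higher and 10.1% lower there, and 6.8% and 4.25% in range 86-124. Of 10 G1 regulators Myc (0.71 ± 0.17) and Ccnd3 rose and Cdk6 fell in range 1-30, and Cdk4, Cdk2, Skp2 and Ccnd2 rose in range 86-124, Cdk2 by 0.65 ± 0.12. Of 7 CDK inhibitors none passed in range 1-30, where Cdkn1a (p21) differed by -0.29 ± 0.12 with an adjusted p of 0.0757, and Cdkn2a fell in range 86-124. Of 20 p53 target genes Eda2r fell in both ranges, by 0.62 (standard error 0.15) and 0.58 (0.15), Sesn1 fell in range 1-30, and Rrm2b fell and Perp rose in range 86-124. In CASP8 IEC-KO of range 86-124, 2 of 51 other replication genes (Pola2 and Pole3) and 1 of 71 other mitosis genes (Cdc25c) rose. Of all genes 1.8% were called higher there and 0.662% lower. Of the remaining lists E2f4 (0.37 ± 0.093, adjusted p = 0.0248), Cdk4 (0.25 ± 0.064) and Perp (0.37 ± 0.098) rose there and Eda2r fell by 0.53 (standard error 0.15). In FADD IEC-KO RIPK3 IEC-KO none of these lists had a gene past the test against Casp8 fl/fl. There 47 of the 51 other replication genes had a higher mean, a count on shared arrays given without the share over all genes. Of all genes 0.0462% were called higher in that comparison and 0.0308% lower. Against FADD IEC-KO of range 1-30, 2 of the 51 other replication genes fell with Zbp1 lost, the origin-firing kinase Cdc7 by 0.45 (standard error 0.12, adjusted p = 0.0109) and the licensing inhibitor Gmnn by 0.36 (0.12), and 1 of 71 other mitosis genes rose, the securin Pttg1 (0.53 ± 0.12). Of all genes 5.61% were called higher with Zbp1 lost and 5.14% lower, and with Mlkl lost 2.91% and 2.93%. With Mlkl lost, Cdc7 fell by 0.49 (standard error 0.12, adjusted p = 0.0104), Gmnn by 0.48 (0.12) and the polymerase alpha subunit Pola2 by 0.45 (0.12), with the condensin subunit Ncapg2 and the kinesin Kif4 of the mitosis list. Of the E2F, RB and MuvB genes none was called with Zbp1 lost, and with Mlkl lost Mybl2, which encodes B-MYB, fell by 0.63 (standard error 0.17) and Lin52 rose by 0.40 ± 0.11. Of the G1 regulators Ccnd3 fell with Zbp1 lost and Cdk6 rose with Mlkl lost, and of the p53 targets 3 fell and 1 rose with Zbp1 lost and 1 fell and 1 rose with Mlkl lost. These 2 comparisons share the FADD IEC-KO arrays, and no CDK inhibitor was called in either.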

How the data were processed

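RNA of 50 mouse colon samples was measured on Affymetrix arrays. Per the labels' protocols, 100 ng of total RNA from frozen tissue was amplified and labelled with biotin, and the submitters' processing notes name Affymetrix Expression Console and Transcriptome Analysis Console. The authors deposited normalized log2 signals per probe set; the sources used here do not state the normalization method. Of 22142 probe sets 19527 had 1 gene symbol in the platform annotation and 2615 none. One probe set per gene, that with the highest mean, left 19494 genes. Array quantiles differed by at most 0.0474 (SD), and the number of arrays limits the precision.

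A single model with 10 group means was fitted to all genes in limma 3.58.1 (R 4.3.3; lmFit and eBayes, 40 residual degrees of freedom), with Benjamini-Hochberg adjustment over 19494 genes and a threshold of 0.05. Title numbers fall into 2 ranges, which the labels do not call batches. The fit was tested on data simulated for FADD IEC-KO against Fadd fl/fl of range 1-30. It called 55% of genes changed by 0.5 log2, 98% of those changed by 1, and 0.0311% of unchanged genes. The simulated noise was normal, independent between genes and equal in all groups, and only 100 genes of each size were changed. These rates describe that setting and may differ in the data. The naming rule took the 3 members of each list with the smallest adjusted p in FADD IEC-KO (range 1-30) and CASP8 IEC-KO (range 86-124), Mcm2, Pcna, Top2a and Mki67, up to 3 called members a list elsewhere and up to 4 called genes of each pathway list; the other members named were chosen after their values were seen. The members and lists were chosen with earlier results of these data known. Alternatives were fits of the compared arrays only, leaving out the 40% of genes with the lowest mean, quantile scaling between arrays, trended and robust moderation, marker and clock gene means as covariates, and leaving out arrays.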

Additional observations from a re-analysis of the deposited data

Results flagged for a closer look

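Single arrays stood apart from the other 4 of their group, by a gap above Dixon's limit for 5 samples, in 4 of 140 groups of values examined, where chance gives about 1 in 20. Fen1 was low in FADD IEC-KO Zbp1 -/- replicate 01, at 5.87. Nasp was low in CASP8 IEC-KO replicate 18, at 6.87, and high in FADD IEC-KO Mlkl -/- replicate 11, at 7.49. Ccne1 was high in FADD IEC-KO replicate 22, at 7.84, the array with the highest neutrophil mean of its group (8.43).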

How the results depend on the processing

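Of the single-gene results under other settings, 1061 kept direction and side of the threshold, 331 lost the call, 9 gained one and 0 reversed. The counts of members called moved by over 1.5 times as follows, and the cause was not tested. For FADD IEC-KO, range 1-30 (22 called), the count was 0 with the smooth muscle mean as a covariate, 14 with the epithelial mean, 8 without replicates 22 and 23, and 14 to 23 without 1 array. Pooling both ranges with a range term gave 37. For FADD IEC-KO, range 86-124 (27), it was 16 and 8 with the smooth muscle and epithelial covariates and 21 to 29 without 1 array. For CASP8 IEC-KO, range 86-124 (6), it was 0 with only the compared arrays and with each of these covariates, 11 with a clock gene score as a covariate, and 0 to 15 without 1 array. For FADD IEC-KO Zbp1 -/- against FADD IEC-KO (1), it was 0 with only the compared arrays, the smooth muscle covariate, or without replicates 22 and 23, 2 with quantile normalization and with trended robust moderation, 5 with dim genes removed, 3 with the clock score and 1 to 4 without 1 array. For FADD IEC-KO Mlkl -/- against FADD IEC-KO (2), the same 3 settings gave 0, dim gene removal, the epithelial covariate and the clock score 1, and leaving out 1 array 1 to 3. Against Fadd fl/fl, FADD IEC-KO Zbp1 -/- (2) had 0 with only the compared arrays and with the clock score, and 0 to 3 without 1 array. FADD IEC-KO RIPK3 IEC-KO against Casp8 fl/fl (3) had 0 with only the compared arrays and the epithelial covariate, and 0 to 2 without 1 array. CASP8 IEC-KO against FADD IEC-KO over both ranges (3) had 0 with only the compared arrays, the smooth muscle covariate or without replicates 22 and 23, 7 with dim genes removed, 1 with the clock score and 0 to 11 without 1 array. The clock score was added after the data were seen.

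Leaving out 1 array kept the sign of the replication mean in each comparison with the floxed arrays (0.44 to 0.56 and 0.49 to 0.58 for FADD IEC-KO). The mitosis mean of CASP8 IEC-KO Mlkl -/- against CASP8 IEC-KO ran from -0.17 to 0.063 and so changed sign. No paired analysis was possible because the title numbers all differ and no groups share one. Depth is not defined for arrays, and 5 arrays a group limit the precision.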
